A study of Mus musculus with 6 samples.

Results

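Chemokines and their receptors were examined as a set of 40 genes, 28 ligands and 12 receptors, in endothelial cells sorted from mouse bone marrow. The members were taken by gene symbol from a list, and each gene was represented by the probe set with the highest mean across the 6 arrays among those annotated with that gene and no other. Of the 40 genes, 39 had such a probe set, out of 22180 genes measured in this way. Ccl19 had none, since the 13 probe sets that name it also name other genes, and no value is given for it. A further 11 members had a mean below the limit for dim genes, a log2 value of 5.07 (the 40th percentile of all genes), and 28 members, 19 ligands and 9 receptors, were tested among 13308 genes.

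Diabetes was represented by 3 arrays from male C57BL/6J mice of a high fat diet model of type 2 diabetes. Nondiabetic controls, also male C57BL/6J mice, gave the other 3 arrays. The growth text of all 6 samples describes the same feeding, 60 kcal% fat for 4 months, so the labels do not settle the diet of the nondiabetic mice. Each array carried amplified total RNA from 5000 endothelial cells collected by flow sorting. Whether each array stands for its own mouse is not stated in the labels, and the p-values therefore measure just the spread of these samples, possibly a technical one.

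Chemokines are small secreted proteins that bind to sugar chains on the vessel wall and guide leukocytes carrying the matching G protein-coupled receptors. CC chemokines draw mainly monocytes and lymphocytes, CXC chemokines with the ELR amino acid motif draw neutrophils through Cxcr2, and CXC chemokines induced by interferon draw T cells through Cxcr3. In bone marrow, Cxcl12 holds stem cells and neutrophils in place through Cxcr4, while Cxcr2 ligands favour the release of neutrophils.

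The sorted cells carried endothelial transcripts in both groups. All 10 endothelial markers passed the limit for dim genes, with mean log2 levels per array of 9.09 to 9.85 in diabetic and 9.15 to 9.63 in nondiabetic samples, and the highest mean was that of diabetic replicate 1. Transcripts of blood cells were present as well. The 6 basophil and mast cell markers averaged 9.44 to 9.93 in diabetic and 9.22 to 10.27 in nondiabetic samples. All 6 tested of 9 neutrophil markers had higher values in diabetic samples, with array means of 7.38 to 7.51 against 6.62 to 7.25 in nondiabetic samples. The granule genes Ltf, Camp and Mmp8 were dim and had lower values in diabetic samples, with log2 differences of -0.12, -0.36 and -0.050. All 6 tested of 9 monocyte and macrophage markers also had higher values in diabetic samples, with array means of 7.63 to 7.82 against 7.05 to 7.52 in nondiabetic samples, while the macrophage markers Adgre1, Fcgr1 and Mpeg1 were dim. The T cell receptor complex genes Cd3e, Cd3d and Cd3g were dim. In such bulk samples, fewer cells of a type and less RNA per cell cannot be told apart.

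No chemokine or receptor gene passed the test for a difference between diabetic and nondiabetic endothelium. Of the 28 tested members, 0 had an adjusted p under 0.05 by limma, where 0.00751% of all tested genes were called, and the adjusted p of every tested member was 0.997. At an unadjusted p under 0.05, 2 members, Cxcl9 and Ccl6, lay higher in diabetic samples and 0 lay lower, beside 4.25% of all tested genes in either direction, 3.19% higher and 1.07% lower. For 1 member, Ccrl2, the groups did not overlap, with diabetic samples below. This held for 7.95% of all tested genes, 5.28% with diabetic samples above and 2.67% with diabetic samples below. The values were split evenly, 14 members higher and 14 lower in diabetic samples, while 54% of all tested genes were higher. The median difference, diabetic minus nondiabetic, was 0.0053 on the log2 scale over the tested members and 0.019 over all tested genes. The median within-group SD was 0.33 for the members and 0.24 for all tested genes. The precision limits what can be said: 95% intervals, not adjusted, stayed inside a change of 2-fold for 19 members, and those of the other 9 did not.

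**Figure D1:**
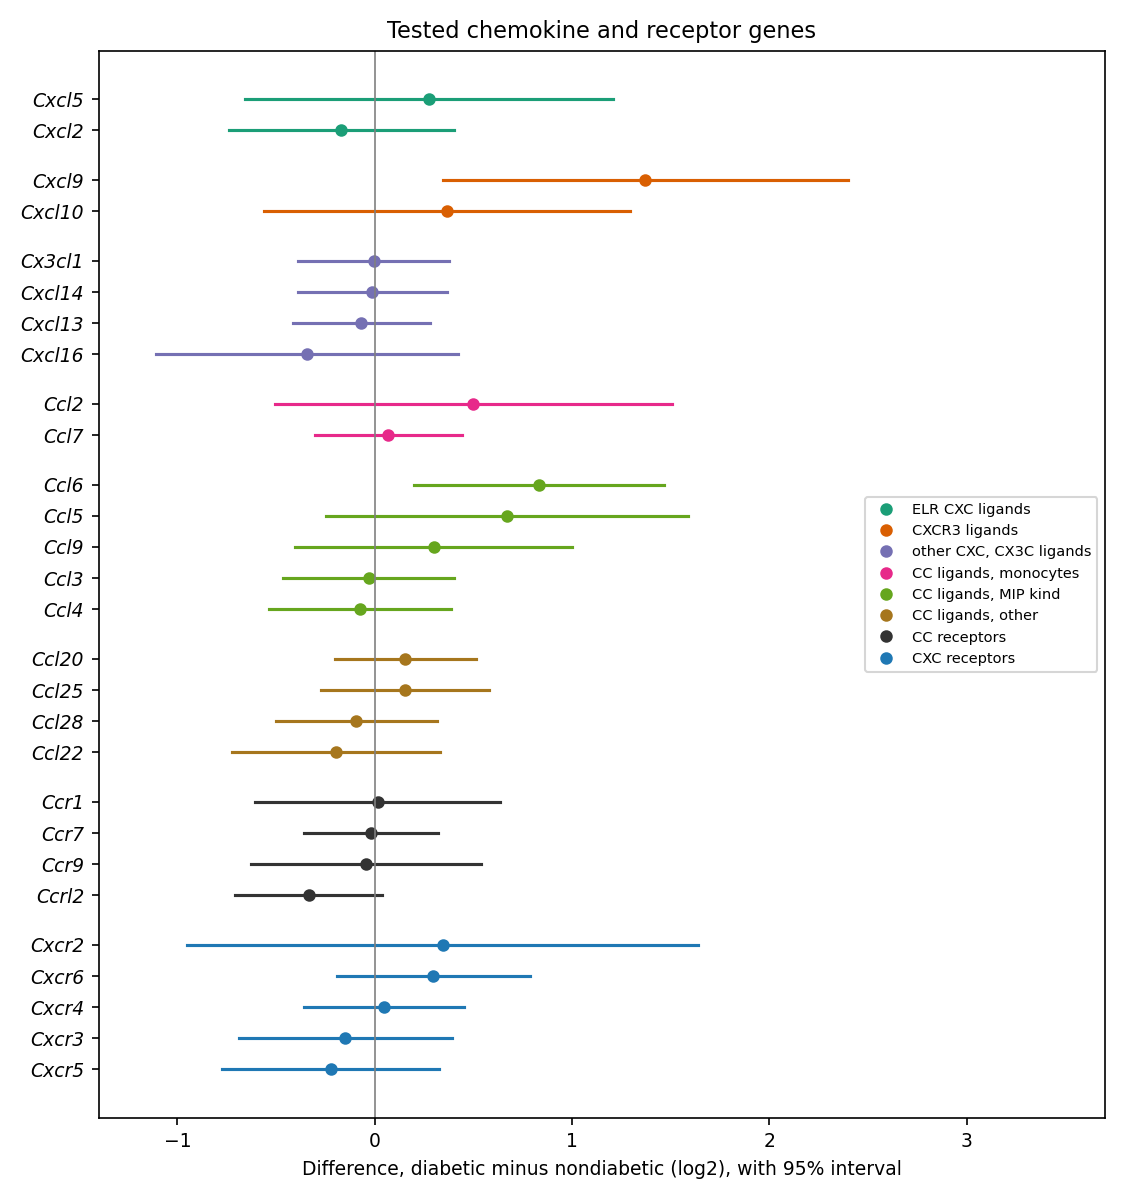
Difference between diabetic and nondiabetic arrays for the 28 tested members (points, log2 scale) with unadjusted 95% intervals (lines), grouped by role from top to bottom. The intervals of Cxcl9 and Ccl6 lie above 0 and those of the other 26 members hold 0.

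The interferon-induced ligands of Cxcr3 included the member with the smallest p. Cxcl9, which draws activated T cells and is induced above all by interferon gamma, had log2 values of 9.48, 9.81 and 9.04 in diabetic samples, against 7.97, 9.09 and 7.16 in nondiabetic samples. The diabetic arrays lay closer together than the nondiabetic arrays did. Nondiabetic replicate 2 lay just above the lowest diabetic array, so the groups overlapped. The means were 9.45 ± 0.39 in diabetic and 8.07 ± 0.97 in nondiabetic samples (SD, n = 3 each), a log2 difference of 1.37 (SE 0.45) with a 95% interval of 0.35 to 2.40, or 2.59-fold. The unadjusted p of 0.015 did not survive adjustment in limma (adjusted p = 0.997). The difference was 0.91 without nondiabetic replicate 3 and 1.88 without nondiabetic replicate 2. Of the interferon gamma genes in the list of inducers, the cytokine Ifng averaged 5.10 ± 0.33 in diabetic and 5.17 ± 0.13 in nondiabetic samples (SD, n = 3 each), near the limit for dim genes. The receptor chains Ifngr1 and Ifngr2 differed by 0.073 and -0.36 on the log2 scale.

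Cxcl10, which lies next to Cxcl9 but for 1 protein-coding gene on chromosome 5 and binds the same receptor, had values of 7.66, 6.63 and 6.10 in diabetic samples, against 5.89, 6.82 and 6.58 in nondiabetic samples. The highest value was that of diabetic replicate 1, and the other diabetic arrays lay within the nondiabetic range. Its log2 difference was 0.37 (interval -0.56 to 1.29), or -0.067 without diabetic replicate 1. Cxcl11, a Cxcr3 ligand that C57BL/6 mice do not make as protein, was dim, with means of 4.75 in diabetic and 5.09 in nondiabetic samples. Cxcr3, their shared receptor on T and NK cells, averaged 5.96 ± 0.33 in diabetic and 6.11 ± 0.33 in nondiabetic samples (SD, n = 3 each), a log2 difference of -0.15.

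The 250 bases before the starts of Cxcl9 and Cxcl10 are shown because Cxcl9 had the smallest p of the members and Cxcl10 is its close neighbour and shares its receptor. The sequences are from RefSeq, build GRCm38.p6, and both genes lie on the minus strand. Capitals mark matches, on either strand, to the kappaB consensus, to the short kappaB form GGGNNTTCC, which can overlap it, to the interferon-stimulated response element, written as GAAA and GAAA with any 2 bases between, and to the gamma-activated site TTCNNNGAA.
Cxcl9, chr5:92328080-92328329: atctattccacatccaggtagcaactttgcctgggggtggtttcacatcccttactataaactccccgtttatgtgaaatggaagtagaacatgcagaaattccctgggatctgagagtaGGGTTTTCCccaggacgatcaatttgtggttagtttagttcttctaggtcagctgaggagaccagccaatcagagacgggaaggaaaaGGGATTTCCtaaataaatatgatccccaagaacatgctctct
Cxcl10, chr5:92348890-92349139: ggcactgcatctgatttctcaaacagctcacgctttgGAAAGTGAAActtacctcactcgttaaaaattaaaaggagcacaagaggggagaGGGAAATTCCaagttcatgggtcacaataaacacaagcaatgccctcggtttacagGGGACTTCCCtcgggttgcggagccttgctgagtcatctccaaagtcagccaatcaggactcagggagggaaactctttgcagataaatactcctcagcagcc
The Cxcl9 stretch held the short kappaB form at 2 places and 0 matches to the other motifs, the gamma-activated site among them. The Cxcl10 stretch held the interferon-stimulated response element at 1 place and the kappaB consensus at 2, of which 1 also held the short form. It held 0 matches to the gamma-activated site. Among 32851 promoter starts in the table, 3.9% held the kappaB consensus, 4.98% its short form, 2.98% the interferon-stimulated response element and 7.02% the gamma-activated site. These letters describe the stretches and were not tested against the arrays.

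Among the CC ligands of the macrophage inflammatory protein kind, which act mainly on monocytes, macrophages and granulocytes, Ccl6 had the smallest p. Ccl6, a chemokine of rodents made by myeloid cells, had values of 7.498, 8.34 and 8.29 in diabetic samples, against 7.04, 6.98 and 7.61 in nondiabetic samples. Diabetic replicates 2 and 3 lay above all nondiabetic arrays, and diabetic replicate 1 lay below nondiabetic replicate 3. The means were 8.04 ± 0.47 in diabetic and 7.21 ± 0.35 in nondiabetic samples (SD, n = 3 each), a log2 difference of 0.83 (SE 0.27) with an interval of 0.20 to 1.47, or 1.78-fold, with an unadjusted p of 0.016 (limma adjusted p = 0.997). With each array left out in turn the difference ran from 0.69 to 1.11. The tested markers of monocytes lay higher in the diabetic samples (7.63 to 7.82 against 7.05 to 7.52 in nondiabetic samples). So did those of neutrophils (7.38 to 7.51 against 6.62 to 7.25 in nondiabetic samples). Within the diabetic samples, Ccl6 was lowest in replicate 1 (7.498) and highest in replicate 2 (8.34). In diabetic replicates 1, 2 and 3 the monocyte marker means were 7.82, 7.63 and 7.63. The neutrophil marker means there were 7.38, 7.39 and 7.51, so replicates 1 and 2 had nearly the same value. The part of either cell type in the Ccl6 values was not tested.

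Ccl6 stands in a run of 5 neighbouring chemokine genes on chromosome 11, in the order Ccl5, Ccl9, Ccl6, Ccl3 and Ccl4, of which the first 3 had higher and the last 2 slightly lower values in diabetic samples. Ccl5, a ligand of T cells and monocytes, had values of 7.65, 6.89 and 5.87 in diabetic samples, against 6.41, 6.02 and 5.97 in nondiabetic samples. The diabetic arrays spanned the whole nondiabetic range, and the log2 difference of 0.67 (interval -0.25 to 1.59) was 0.25 without diabetic replicate 1 and 1.14 without diabetic replicate 3. Ccl9, which attracts cells bearing Ccr1, had values of 8.997, 9.40 and 9.86 in diabetic samples, against 8.72, 8.94 and 9.70 in nondiabetic samples, with overlap. Its log2 difference was 0.30 (interval -0.41 to 1.002), and it was 0.079 without diabetic replicate 3.

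Ccl3 and Ccl4, ligands of activated myeloid and lymphoid cells, had like values in both groups. Ccl3 had values of 11.46, 11.75 and 11.23 in diabetic samples, against 11.44, 11.37 and 11.72 in nondiabetic samples. Ccl4 had values of 10.52, 10.90 and 10.51 in diabetic samples, against 10.62, 10.50 and 11.04 in nondiabetic samples. The log2 differences were -0.031 (interval -0.46 to 0.40) for Ccl3 and -0.074 (interval -0.53 to 0.39) for Ccl4. Both intervals lay inside a change of 2-fold.

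The 250 bases before the start of Ccl6 are given because it was, with Cxcl9, one of the 2 members with an unadjusted p under 0.05. They held 0 matches to the 4 motifs, so no letter is in capitals (RefSeq, GRCm38.p6, minus strand).
Ccl6, chr11:83593088-83593337: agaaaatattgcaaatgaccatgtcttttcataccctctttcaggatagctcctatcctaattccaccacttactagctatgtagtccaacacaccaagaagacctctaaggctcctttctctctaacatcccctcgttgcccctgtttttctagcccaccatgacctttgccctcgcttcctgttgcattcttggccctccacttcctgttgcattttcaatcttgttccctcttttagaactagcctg

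**Figure D2:**
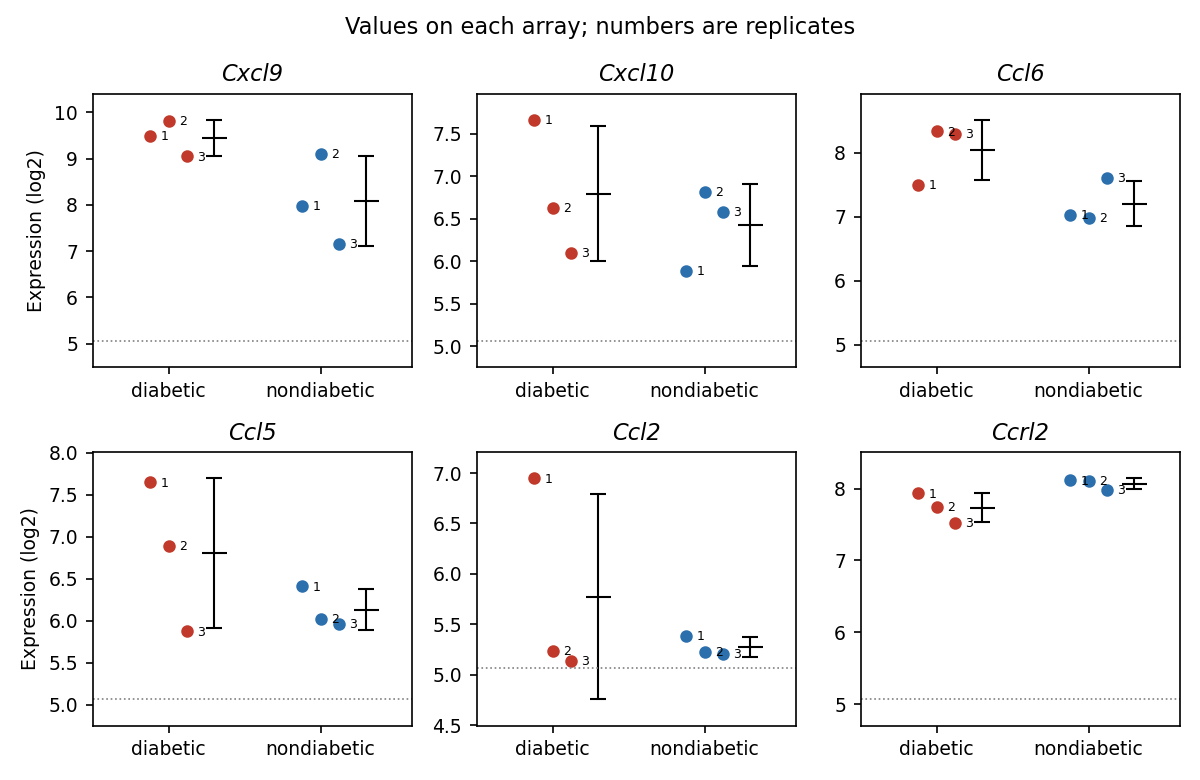
Expression on each array (points, log2 values, numbered by replicate) of 6 members in diabetic (left) and nondiabetic (right) samples, with the mean and SD of 3 arrays beside them and a dotted line at the limit for dim genes, 5.07. Ccrl2 shows groups that do not overlap, and in Cxcl10, Ccl5 and Ccl2 diabetic replicate 1 is the highest of all arrays.

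The CC ligands that draw inflammatory monocytes gave little signal. Ccl2, the main ligand of Ccr2, had values of 6.95, 5.24 and 5.14 in diabetic samples, against 5.39, 5.23 and 5.21 in nondiabetic samples. Diabetic replicate 1 alone stood well above the limit for dim genes, and without it the log2 difference was -0.085, where all 6 arrays gave 0.50 (interval -0.50 to 1.51). Ccl7, a ligand of Ccr2 as well, averaged 5.19 ± 0.14 in diabetic and 5.13 ± 0.16 in nondiabetic samples (SD, n = 3 each), and Ccl8 and Ccl12 were dim. Ccr2 itself, the receptor of inflammatory monocytes and not a member of the set, had values of 7.94, 8.42 and 8.05 in diabetic samples, against 7.53, 7.60 and 7.79 in nondiabetic samples, beside the monocyte markers given above. These groups did not overlap, as for 7.95% of all tested genes, and the log2 difference was 0.50 (limma adjusted p = 0.997).

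Of the 4 ELR ligands of Cxcr2, which draw neutrophils, 2 were tested, with 1 higher and 1 lower in diabetic samples. Cxcl2 had values of 9.26, 9.93 and 9.33 in diabetic samples, against 9.28, 9.80 and 9.95 in nondiabetic samples, with overlap and a log2 difference of -0.17 (interval -0.74 to 0.40). Cxcl5 had values of 4.76, 5.32 and 6.57 in diabetic samples, against 5.41, 5.31 and 5.11 in nondiabetic samples. Diabetic replicate 3 lay above and diabetic replicate 1 below every nondiabetic array. The log2 difference of 0.28 was -0.23 without diabetic replicate 3 and 0.67 without diabetic replicate 1. Cxcl1 and Cxcl3 were dim, with means of 4.79 and 3.93 in diabetic samples, against 4.90 and 3.60 in nondiabetic samples.

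The promoters of Cxcl1, Cxcl2 and Cxcl3 carry the same kappaB sequence close to the start, shown here since Cxcl2 lay above the limit for dim genes and Cxcl1 and Cxcl3 did not. Each line gives the kappaB match in capitals with 15 bases on either side (RefSeq, GRCm38.p6, plus strand).
Cxcl1, chr5:90891159-90891198: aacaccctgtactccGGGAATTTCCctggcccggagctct
Cxcl2, chr5:90903787-90903826: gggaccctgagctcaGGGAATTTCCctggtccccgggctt
Cxcl3, chr5:90786013-90786052: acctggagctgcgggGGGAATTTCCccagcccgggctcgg
The match began 71 bases before the start of Cxcl1, 97 before that of Cxcl2 and 73 before that of Cxcl3. Of the 28 members with a promoter in the table, which are not the same 28 as those tested, 9 held the kappaB consensus in the 250 bases before a start, at 28.1% of their 32 starts, where 3.9% of all starts held it.

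The 4 other CXC and CX3C ligands had slightly lower values in diabetic samples on all 6 arrays together, none past the test, and each had a positive difference with some single array left out. Cxcl16, a membrane-bound ligand of Cxcr6, averaged 6.39 ± 0.34 in diabetic and 6.74 ± 0.66 in nondiabetic samples (SD, n = 3 each), a log2 difference of -0.34 that was 0.0088 without nondiabetic replicate 1. Cx3cl1, the fractalkine of inflamed endothelium, averaged 5.86 ± 0.22 in diabetic and 5.87 ± 0.09 in nondiabetic samples. The B cell chemokine Cxcl13 and the epithelial and stromal chemokine Cxcl14 differed by -0.069 and -0.012 on the log2 scale. Of the ligands of lymphoid, mucosal and eosinophil traffic, Ccl20, Ccl22, Ccl25 and Ccl28 were tested and differed by 0.15, -0.20, 0.15 and -0.093, and Ccl11, Ccl17 and Ccl24 were dim.

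Ccrl2 was the tested member whose groups did not overlap. It is an atypical receptor that does not signal through G proteins but binds chemerin and presents it to leukocytes, and endothelium makes it in inflammation. Its values were 7.93, 7.75 and 7.52 in diabetic samples, against 8.11, 8.11 and 7.99 in nondiabetic samples. The highest diabetic array lay 0.05 below the lowest nondiabetic array in log2 units. The means were 7.73 ± 0.20 in diabetic and 8.07 ± 0.07 in nondiabetic samples (SD, n = 3 each), a log2 difference of -0.33 (SE 0.16) with an interval of -0.71 to 0.039, or 0.793-fold, with an unadjusted p of 0.0727 (limma adjusted p = 0.997). The difference ran from -0.43 to -0.23 with single arrays left out. Groups that do not overlap must stay apart, with the same sign, when any array is left out. Leaving out arrays therefore could not test the separation of Ccrl2, and just the size of the difference could vary.

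**Figure D3:**
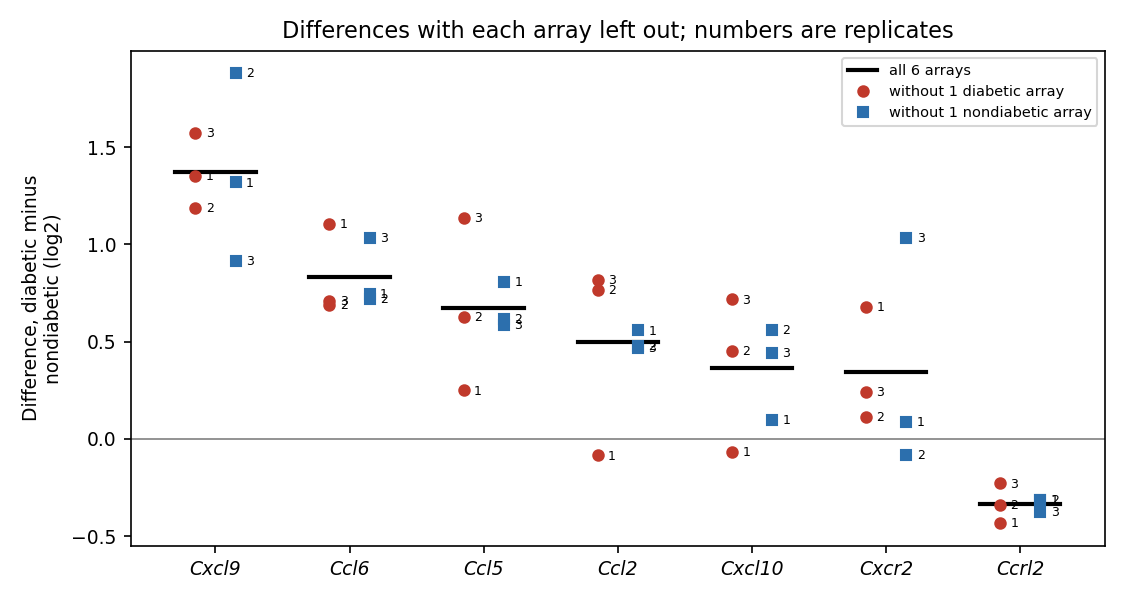
Log2 difference, diabetic minus nondiabetic, of 7 members on all 6 arrays (bars) and with 1 diabetic (circles) or 1 nondiabetic array (squares) left out, numbered by replicate. Cxcl9 and Ccl6 stay above 0 throughout, and Ccrl2 stays below 0, as a gene whose groups do not overlap must. Ccl2 and Cxcl10 are at -0.085 and -0.067 without diabetic replicate 1.

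Cxcr4, the receptor that holds stem cells and neutrophils in the marrow, had values of 9.74, 9.86 and 9.90 in diabetic samples, against 9.59, 9.69 and 10.09 in nondiabetic samples. The diabetic arrays lay inside the nondiabetic range, and the log2 difference was 0.045 (interval -0.36 to 0.45). Its ligand Cxcl12, not a member, had values of 9.94, 9.78 and 10.14 in diabetic samples, against 10.30, 10.53 and 9.88 in nondiabetic samples. Cxcr6, the receptor of Cxcl16 on T and NK cells, averaged 6.43 ± 0.11 in diabetic and 6.13 ± 0.38 in nondiabetic samples (SD, n = 3 each), a log2 difference of 0.30 that was 0.078 without nondiabetic replicate 2. The follicular B cell receptor Cxcr5 differed by -0.22, and the lymph node homing receptor Ccr7 by -0.018. Ccr3, Ccr6 and Ccr10, receptors of eosinophils and of lymphocytes bound for gut and skin, were dim. The dim member nearest the limit was Ccr10, with a mean of 4.95 over all arrays, and the tested member nearest to it was Ccl7, with 5.16.

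Several receptors varied more within a group than between the groups. Cxcr2, the neutrophil receptor of the ELR ligands, had values of 7.44, 8.58 and 8.32 in diabetic samples, against 7.25, 6.91 and 9.14 in nondiabetic samples. The lowest and the highest array were both nondiabetic, and the log2 difference of 0.34 (interval -0.95 to 1.64) was 1.03 without nondiabetic replicate 3 and -0.085 without nondiabetic replicate 2. Ccr1, a receptor of Ccl3, Ccl5 and Ccl9 on myeloid cells, had values of 5.49, 5.66 and 5.86 in diabetic samples, against 5.62, 5.13 and 6.22 in nondiabetic samples. Ccr9, the receptor of Ccl25 on thymic and gut lymphocytes, had values of 7.06, 6.74 and 6.88 in diabetic samples, against 6.74, 6.57 and 7.51 in nondiabetic samples. In each of these, nondiabetic replicate 3 was highest and nondiabetic replicate 2 lowest.

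The basophil and mast cell markers had their highest and lowest array means in the same samples, 10.27 in nondiabetic replicate 3 and 9.22 in nondiabetic replicate 2, against 9.44, 9.78 and 9.93 in the diabetic samples. Each marker was highest in nondiabetic replicate 3, but not every marker was lowest in nondiabetic replicate 2. Mcpt8 was lowest in diabetic replicate 1 (11.03) and Ms4a2 in nondiabetic replicate 1 (8.33). Of the 28 tested members 4, or 14.3%, had the same highest and lowest array as these markers, namely Ccr1, Cxcr2, Ccr9 and the ligand Ccl4, and 2.75% of all tested genes did. This was the highest share of members among the 9 marker lists set beside the members in this way. The lists ranged from 1 tested gene for T and NK cells to 10 for endothelium, so their shares are not directly comparable. The megakaryocyte list shared its highest and lowest array with 2 members (7.14%, beside 2.49% of all tested genes), the B cell and the monocyte lists with 2 members each (7.14%, beside 6.18% for either list), and the other 5 lists, neutrophil and endothelium among them, with 0. Ccr1 followed the order of the basophil and mast cell marker means over all 6 arrays, as did 0.113% of all tested genes. These 4 genes were picked out after their values were seen, and the part of basophil RNA in them was not tested.

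**Figure D4:**
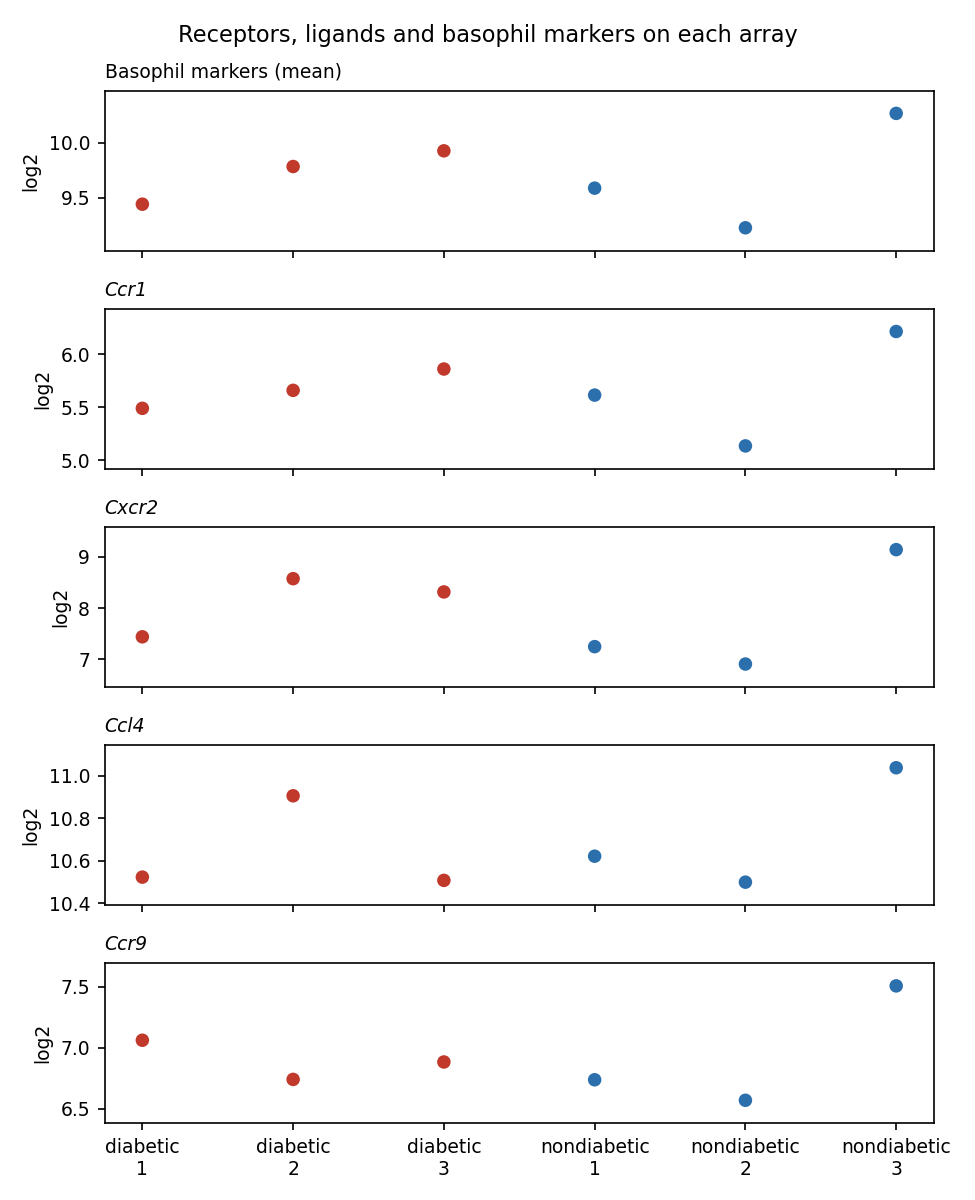
Mean of the 6 basophil and mast cell markers and values of Ccr1, Cxcr2, Ccl4 and Ccr9 (log2) on each array, diabetic in red on the left and nondiabetic in blue on the right, 1 point per array. Nondiabetic replicate 3 is highest and nondiabetic replicate 2 lowest in every panel.

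Other genes of the chemokine system were read from lists of partners, and 0 of them passed the adjusted test. Of 15 tested other ligands and receptors, 8 had higher and 7 lower values in diabetic samples, and the smallest p-values were those of Ccr2, of Ackr1 and of Cxcl12. Ackr1, the Duffy receptor that carries chemokines across venular endothelium, had values of 8.23, 7.23 and 6.20 in diabetic samples, against 6.00, 6.90 and 6.47 in nondiabetic samples, with diabetic replicate 1 highest as for Ccl2, Ccl5 and Cxcl10. That array was the highest for 29.9% of all tested genes and for 21.4% of the tested members. Of 20 tested signal carriers behind the receptors, 14 had higher and 6 lower values in diabetic samples. Among them the receptor kinase gene Grk3 differed by 0.76, the leukocyte migration factor gene Dock2 by 0.49 and the G protein regulator gene Rgs16 by -0.75 on the log2 scale. Of 12 tested genes that present or trim chemokines, 9 had higher and 3 lower values in diabetic samples. The protease gene Dpp4, which clips chemokines, differed by 0.44, with groups that did not overlap, and the heparan sulfate carriers Sdc1 and Sdc3 differed by 0.37 and 0.23. In each of these lists the groups of 1 tested gene did not overlap, which held for 7.95% of all tested genes. Over all tested genes, 54% were higher in diabetic samples.

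The cytokines, receptors and factors that induce chemokine genes were divided as well, with 11 of 17 tested genes higher and 6 lower in diabetic samples. The TNF receptor gene Tnfrsf1a had values of 8.23, 7.56 and 7.51 in diabetic samples, against 7.27, 7.27 and 6.97 in nondiabetic samples. Its ligand Tnf had values of 7.62, 6.95 and 6.37 in diabetic samples, against 7.25, 7.90 and 8.67 in nondiabetic samples. The log2 differences were 0.60 for Tnfrsf1a, whose groups did not overlap, and -0.96 for Tnf, whose groups did. Tnfrsf1a was the 1 tested gene of this list with groups apart, beside 7.95% of all tested genes. The interferon regulatory factor gene Irf7 differed by 0.46, with overlapping groups.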

How the data were processed

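RNA from sorted bone marrow endothelial cells was measured on 6 microarrays, 3 diabetic and 3 nondiabetic. The deposited values are log2 intensities that the authors made with RMA, per the submitters' processing notes, so background correction, normalization and probe summary preceded everything here. For the RMA version, genome build and annotation, the wording of the labels gives nothing. Depth has no meaning for arrays, and the number of arrays limits the precision.

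Of 41345 probe sets, 23521 named 1 gene, 1814 several and 16010 none in the platform annotation, and 23328 of the first were matched to RefSeq (GRCm38.p6) by gene number. Each gene was read from its brightest probe set naming it alone. Genes with a mean under the 40th percentile (log2 5.07) were left out of the test. Diabetic and nondiabetic arrays were tested over 13308 genes by lmFit and eBayes of limma 3.58.1 (R 4.3.3), with Benjamini-Hochberg adjustment at 0.05, and the procedure was tested on simulated data. Array medians were 5.21 to 5.28.

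The members and lists were chosen with earlier results of these data known. Values on every array are given for members with an unadjusted p under 0.05 or groups that do not overlap, for the 6 ligands and 3 receptors of highest mean, for Cxcr4, and for Cxcl12 and Ccr2. The 3 genes of smallest p are named in each list of partners. Ccl2, Ccl5, Cxcl5, Cxcl10, Ccr1, Ccr9 and the interferon gamma genes were added to these after their values were seen. Alternatives were other dim filters, the mean of probe sets, renewed quantile normalization, median centring, another variance model, array weights, a replicate block and each array left out. Motifs were searched on both strands in the 250 bases before each start.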

Additional observations from a re-analysis of the deposited data

How the results depend on the processing

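In none of the 14 alternative settings did a member pass the adjusted test in limma, and the smallest adjusted p of a member was 0.437 (Ccl6 with array weights). Over all tested genes 1 was called, against 0 with the dim filter at the 60th percentile and 0 to 1 with single arrays left out (0 without nondiabetic replicate 3). The count of members whose groups do not overlap was 1, 2 after renewed quantile normalization, which added Cxcl9, and 1 to 6 with single arrays left out, where fewer arrays make separation easier. The share of all tested genes was counted in the main setting only (7.95%), so the counts in other settings cannot be read as a result about the members. The median member difference stayed between -0.018 and 0.12. The sign of the difference was kept in every setting by 10 members and changed in some setting for 18. With array weights the difference turned positive for Cxcl2 (0.096), Cxcl14 (0.072), Cx3cl1 (0.024), Ccl3 (0.14) and Ccl4 (0.10), and the cause was not tested. The weights of diabetic replicates 1, 2 and 3 were 0.49, 2.96 and 0.67, so replicate 2 counted most in the diabetic mean. Those of nondiabetic replicates 1, 2 and 3 were 1.10, 1.09 and 0.85. With single arrays left out the ranges that held both signs were -0.23 to 0.67 for Cxcl5, -0.067 to 0.72 for Cxcl10, -0.12 to 0.015 for Cxcl13, -0.079 to 0.12 for Cxcl14, -0.65 to 0.0088 for Cxcl16, -0.093 to 0.12 for Cx3cl1, -0.085 to 0.82 for Ccl2, -0.020 to 0.15 for Ccl7, -0.17 to 0.093 for Ccl3, -0.20 to 0.085 for Ccl4 and -0.013 to 0.26 for Ccl25. For the receptors they were -0.25 to 0.30 for Ccr1, -0.087 to 0.028 for Ccr7, -0.23 to 0.24 for Ccr9, -0.085 to 1.03 for Cxcr2, -0.26 to 0.044 for Cxcr3 and -0.053 to 0.19 for Cxcr4. Among members that kept their sign with single arrays left out, the range was -0.38 to -0.034 for Cxcl2, -0.36 to -0.015 for Ccl22, -0.22 to -0.0047 for Ccl28, -0.41 to -0.049 for Cxcr5 and 0.078 to 0.44 for Cxcr6. The replicate block left 1 gene and 0 members called. Deviations from the group means of arrays with the same number correlated at -0.036, -0.064 and 0.016 across genes. With 3 arrays per group, these values cannot settle whether samples with the same number were handled together.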
